A study of Mus musculus with 4 samples.

Results

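The tumour necrosis factor (TNF) and TNF receptor superfamily was measured by RNA sequencing in DN3 thymocytes, the CD25-positive T cell precursors that rearrange their T cell receptor beta genes. Members were taken by gene symbol alone, as all measured genes of the numbered Tnfsf and Tnfrsf series, Tnf, Lta, Ltb, Ltbr, Fas, Fasl, Cd27, Cd70, Cd40, Cd40lg and Traf1 to Traf6. This gave 47 of 23285 genes: 17 ligands, 24 receptors and 6 TRAF adaptors. Libraries labelled Gata3(g/g), a genotype given as a hypomorph of the transcription factor gene Gata3, were compared with wild-type (WT) libraries. Both genotypes were labelled C57BL/6 and had 2 libraries each. Fetal liver cells of either genotype had been transferred to irradiated recipient mice, and DN3 cells were sorted 16 weeks later. The sources used here do not state the age of the recipients, how the allele was altered or how donor cells were told from any remaining host cells. Whether replicates were separate animals is not stated, and p-values therefore measure only the spread between these libraries, which may be technical. Replicates 1 were sequenced together in one run (run 1 below) and replicates 2 in another (run 2), and all tests compared the genotypes within run.

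Ligands of this superfamily are mostly trimers held in the cell membrane or released from it, and each binds 1 or a few receptors with cysteine-rich extracellular domains. Receptors with a death domain, such as FAS and TNFR1, can recruit caspases. Many receptors of the family, though not the decoys, act through TRAF adaptors, which lead to NF-kB and MAP kinase signalling. In the thymus the family is best known for RANKL, CD40 ligand and lymphotoxin, which developing T cells use to drive maturation of the medullary epithelium, and for CD27, which appears on early T cell precursors.

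Libraries labelled Gata3(g/g) held 26901913 and 18035342 fragments assigned to genes, against 21159909 and 14331705 in the WT libraries. Gata3 itself was higher in libraries labelled Gata3(g/g), at 120 and 96.1 FPKM against 62.4 and 58.5 FPKM in WT, so directions rest on the labels, and GATA3 protein was not measured. FPKM is the authors' deposited value, a fragment count scaled to transcript length and to the size of the library. All 10 listed DN3 markers stood above 1 FPKM in every library, Ptcra, the pre-T cell receptor alpha chain gene, at 61.1 and 46.5 FPKM in libraries labelled Gata3(g/g) and 53.3 and 53.6 FPKM in WT. Of these, Il2ra, Dntt and Dtx1, a target gene of Notch, were higher in both libraries labelled Gata3(g/g). Dntt measured 1047 and 982 FPKM in libraries labelled Gata3(g/g) against 789 and 747 FPKM in WT. Hes1 (37.5 and 24.8 FPKM against 62.6 and 23.3 FPKM in WT) and Rag1 (117 and 83.1 FPKM against 204 and 83.1 FPKM in WT) did not follow. The 10 summed to 2411 and 2451 FPKM in libraries labelled Gata3(g/g) and 1970 and 2056 FPKM in WT. The runs differed in Fos, at 2.22 FPKM (Gata3(g/g)) and 1.21 FPKM (WT) in run 2 and 152 FPKM (Gata3(g/g)) and 224 FPKM (WT) in run 1. They also differed in 8 erythroid markers, which summed to 593 FPKM (Gata3(g/g)) and 464 FPKM (WT) in run 2 and to at most 2.35 FPKM in run 1. The myeloid gene S100a8 stood at 40.2 FPKM (Gata3(g/g)) and 33.3 FPKM (WT) in run 2 and at 0 FPKM (Gata3(g/g)) and 0.660 FPKM (WT) in run 1. S100a9 stood at 8.77 FPKM (Gata3(g/g)) and 12.1 FPKM (WT) in run 2 and at 0 FPKM (Gata3(g/g)) and 0.466 FPKM (WT) in run 1.

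Most of the superfamily was low or undetected. Of the 47 members, 21 had a mean of at least 1 FPKM over the 4 libraries and were tested: 4 of 17 ligands, 12 of 24 receptors and 5 of 6 TRAF adaptors. One gene dominated. Cd27, the receptor for CD70, made up 37.9% and 38.8% of the members' summed FPKM in libraries labelled Gata3(g/g) and 39.4% and 45.5% in WT. The receptors together summed to 128 and 132 FPKM in libraries labelled Gata3(g/g) and 133 and 133 FPKM in WT. The ligands summed to 41.2 and 26.8 FPKM against 43.8 and 21.6 FPKM in WT, and the TRAF adaptors to 31.1 and 21.01 FPKM against 34.1 and 27.3 FPKM in WT. For ligands and TRAF adaptors the library of run 2 was the lower one in both genotypes.

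**Figure D1:**
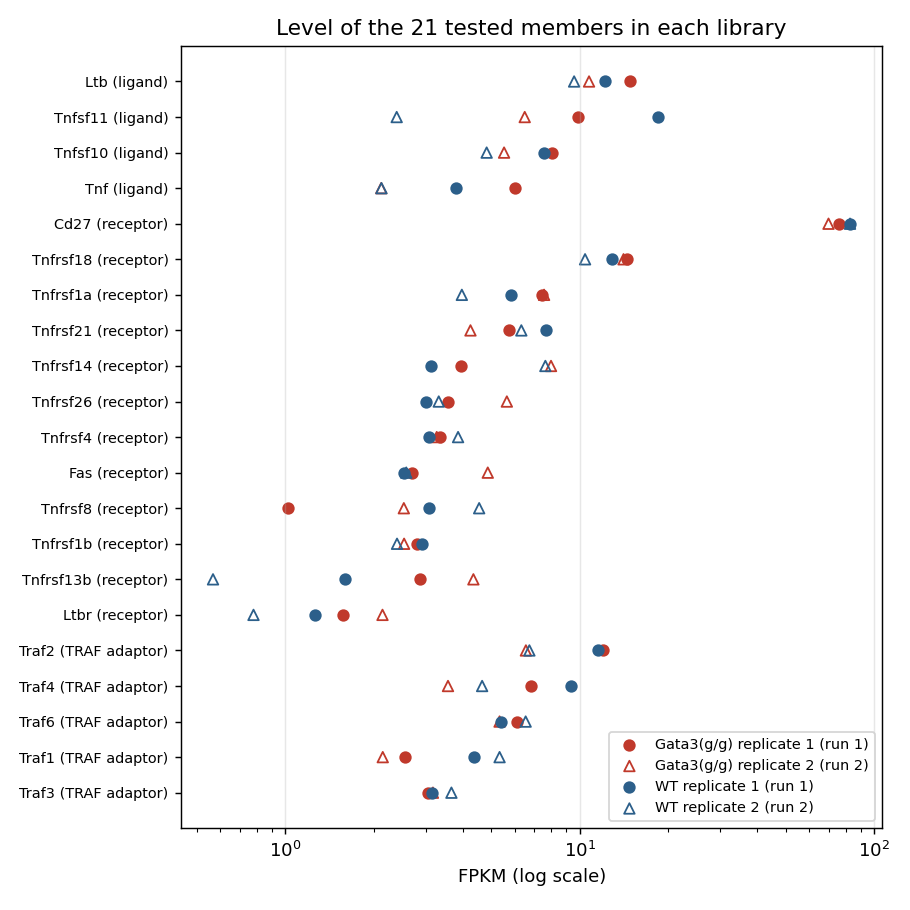
FPKM (log axis) of the 21 tested members, grouped as ligands, receptors and TRAF adaptors and ordered by mean within each group, with 1 point per library. Cd27 stands apart between 69.9 and 82.9 FPKM, and the other members lie between 0.568 and 18.4 FPKM.

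Traf1, Tnfrsf8 and Tnfrsf21 fell and Tnfrsf1a and Tnfrsf13b rose in libraries labelled Gata3(g/g). These were 5 of the 21 tested members (23.8%) by edgeR's quasi-likelihood F test with run as a block, at a Benjamini-Hochberg adjusted p under 0.05, where 6.90% of all 10224 tested genes passed. By direction, 2 rose (3.90% of all) and 3 fell (2.99% of all), and 8 had an unadjusted p under 0.05 (20.9% of all). Of the 5 that passed, 4 were receptors and 1 a TRAF adaptor, and none of the 4 tested ligands passed (0 also at an unadjusted p under 0.05). In bulk RNA, fewer cells of a type and less RNA per cell cannot be told apart. Without the run block edgeR called 0 members and 0 of all tested genes (0.00%), with 2 members and 3.84% of all genes at an unadjusted p under 0.05. With the block, DESeq2 called Traf1 alone of the members (4.08% of all genes). Limma on log2(FPKM + 1) with the block called 0 members (0.176% of all genes), with 6 at an unadjusted p under 0.05. All 5 calls were also lost when any 1 library was left out, in fits that cannot keep the run block.

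Traf1 encodes the TRAF family member without a RING domain, which binds TRAF2 and is itself induced by NF-kB. It measured 2.54 and 2.14 FPKM in libraries labelled Gata3(g/g) (2.34 ± 0.282, SD, n = 2), against 4.38 and 5.34 FPKM in WT (4.86 ± 0.680, SD, n = 2). Both Gata3(g/g) values lay below both WT values. From 163 to 374 fragments per library, Traf1 fell by 1.04 on the log2 scale (SE 0.212, edgeR adjusted p = 0.00564). Run 1 gave a difference of −0.76 and run 2 one of −1.32. The authors' deposited table gave Traf1 a log2 fold change of −1.05 and a q-value of 0.0121, the only member there with a q-value under 0.05.

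Tnfrsf8 encodes CD30, an activation receptor of lymphocytes that signals through TRAF1, TRAF2 and TRAF3. It stood at 1.02 and 2.52 FPKM in libraries labelled Gata3(g/g), against 3.08 and 4.55 FPKM in WT, with 76 to 175 fragments per library. The groups did not overlap, and in each genotype the library of run 2 was the higher. The log2 fold change was −1.21 (SE 0.281, edgeR adjusted p = 0.0148). Run 1 gave −1.54 and run 2 gave −0.86. Without the block, it was −0.60 without Gata3(g/g) replicate 1, −1.90 without Gata3(g/g) replicate 2 and −0.79 without WT replicate 2. The CD30 ligand gene Tnfsf8 reached at most 0.461 FPKM in any library.

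Tnfrsf13b encodes TACI, a receptor for BAFF and APRIL known mainly from B cells. It measured 2.86 and 4.35 FPKM in libraries labelled Gata3(g/g), from 89 and 88 fragments, against 1.59 and 0.568 FPKM in WT, from 37 and 9 fragments. The genotypes did not overlap, and the WT library of run 2 was the lowest. Tnfrsf13b rose by 1.67 on the log2 scale (SE 0.482, edgeR adjusted p = 0.0476), the largest fold change among the tested members. Run 1 gave 0.84 and run 2 gave 2.73. Leaving out one library in turn, without the block, gave values from 1.17 without WT replicate 2 to 2.63 without WT replicate 1.

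The other B cell receptors of the family stayed near 0: Tnfrsf13c, for the BAFF receptor, reached at most 0.168 FPKM, Tnfrsf17, for BCMA, 0.114 FPKM, and Cd40 0.0398 FPKM. Of 9 listed B cell markers, 6 were under 1 FPKM in every library, among them Pax5 and Ms4a1 at no more than 0.0274 and 0.0774 FPKM. The list summed to 39.5 and 33.8 FPKM in libraries labelled Gata3(g/g) and 31.7 and 31.7 FPKM in WT, nearly all of it Cd79b. Vpreb1, for part of the surrogate light chain of pre-B cells, measured 2.21 and 2.16 FPKM in libraries labelled Gata3(g/g) and 1.30 and 0.979 FPKM in WT (log2 fold change 0.93, SE 0.465, edgeR adjusted p = 0.267). Igll1, for its other part, measured 0.0534 and 1.71 FPKM in libraries labelled Gata3(g/g) and 0.286 and 1.20 FPKM in WT. Whether Vpreb1 and Tnfrsf13b RNA came from the same cells was not tested. Tnfsf13b and Tnfsf13, the genes for BAFF and APRIL, were at most 0.167 and 0.0564 FPKM.

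Tnfrsf1a encodes TNFR1, the death-domain receptor through which soluble TNF signals in most cells. It measured 7.44 and 7.56 FPKM in libraries labelled Gata3(g/g) (7.50 ± 0.0809, SD, n = 2), against 5.83 and 3.97 FPKM in WT (4.90 ± 1.31, SD, n = 2). Libraries labelled Gata3(g/g) were close to each other and above both WT libraries. Tnfrsf1a rose by 0.63 on the log2 scale (SE 0.175, edgeR adjusted p = 0.0389), by 0.37 within run 1 and 0.91 within run 2. Without WT replicate 2, and without the block, the value was 0.38. Tnfrsf1b, for TNFR2, the receptor that lacks a death domain and binds TRAF2, stood at 2.80 and 2.53 FPKM against 2.92 and 2.39 FPKM in WT. Its log2 fold change was 0.01 (SE 0.160, edgeR adjusted p = 0.977).

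Tnfrsf21 encodes death receptor 6. It measured 5.76 and 4.25 FPKM in libraries labelled Gata3(g/g), against 7.65 and 6.33 FPKM in WT, and the groups did not overlap. It fell by 0.48 on the log2 scale (SE 0.139, edgeR adjusted p = 0.0468), and the within-run differences were −0.39 and −0.58. The call was lost when libraries were scaled to total fragments only (edgeR adjusted p = 0.0769) and with no minimum level (0.0575). Without Gata3(g/g) replicate 2, and with no block, it stood at −0.28.

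**Figure D2:**
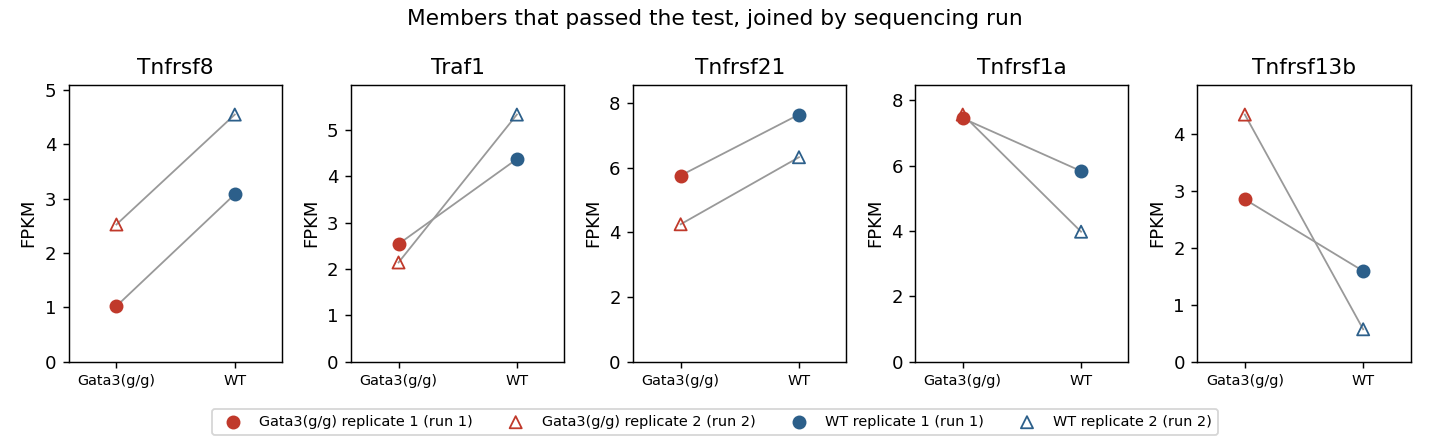
FPKM of the 5 members that passed, with Gata3(g/g) on the left and WT on the right of each panel, 1 point per library and a line joining the libraries of a run. In every panel both lines slope the same way, the within-run differences lying between −1.54 and −0.39 (log2 CPM) for Tnfrsf8, Traf1 and Tnfrsf21 and between 0.37 and 2.73 for Tnfrsf1a and Tnfrsf13b.

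The letters around the start sites are shown for Traf1 and Tnfrsf8, the members with the largest falls, and for Tnfrsf13b, the member with the largest rise. Each runs from 250 bases before to 50 bases after a transcript start (RefSeq, GRCm38.p6), which for Traf1 lies 40 and for Tnfrsf13b 472 bases inside the outermost start annotated for the gene. Capitals mark matches to a loose form of the NF-kB motif, GGG and CC with any 5 bases between them, on either strand.
Traf1, chr2:34961723-34962022, minus strand: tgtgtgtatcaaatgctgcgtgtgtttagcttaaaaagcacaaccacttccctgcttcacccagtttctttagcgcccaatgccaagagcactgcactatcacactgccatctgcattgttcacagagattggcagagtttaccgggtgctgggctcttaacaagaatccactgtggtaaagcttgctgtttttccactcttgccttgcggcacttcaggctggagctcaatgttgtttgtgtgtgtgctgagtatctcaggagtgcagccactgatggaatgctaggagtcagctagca
Tnfrsf8, chr4:145315115-145315414, minus strand: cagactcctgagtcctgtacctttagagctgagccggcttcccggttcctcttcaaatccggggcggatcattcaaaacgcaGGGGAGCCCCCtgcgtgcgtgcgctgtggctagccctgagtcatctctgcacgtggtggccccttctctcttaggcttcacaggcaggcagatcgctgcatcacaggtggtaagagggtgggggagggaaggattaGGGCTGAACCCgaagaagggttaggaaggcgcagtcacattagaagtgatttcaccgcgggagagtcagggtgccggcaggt
Tnfrsf13b, chr11:61126505-61126804, plus strand: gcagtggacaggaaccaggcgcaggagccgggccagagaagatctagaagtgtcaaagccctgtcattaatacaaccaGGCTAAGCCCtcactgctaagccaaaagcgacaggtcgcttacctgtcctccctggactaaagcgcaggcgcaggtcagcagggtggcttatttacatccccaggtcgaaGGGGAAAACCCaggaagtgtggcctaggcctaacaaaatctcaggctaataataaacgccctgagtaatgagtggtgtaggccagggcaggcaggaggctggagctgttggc
Traf1 had no match in this window, Tnfrsf8 had 4 overlapping in pairs, and Tnfrsf13b had 3, of which a pair overlapped. None of the 5 promoters of the members that passed held AGATAA or TGATAA, forms of the GATA motif, on either strand. In the table, 20 of the 21 tested members had a promoter, of which 5% held a GATA form and 75.0% the NF-kB form. Over all 32851 promoters of this length, 18.6% held a GATA form and 50.8% the NF-kB form. A match describes letters and does not show a bound site.

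Several receptors were higher in both libraries labelled Gata3(g/g) without passing the test. For 10 of the 21 tested members (47.6%, against 29.0% of all tested genes) the values of the genotypes did not overlap. Of these, 6 were higher in both libraries labelled Gata3(g/g) (14.2% of all genes were) and 4 lower (14.8% of all). Ltbr, the receptor of membrane lymphotoxin, measured 1.56 and 2.14 FPKM in libraries labelled Gata3(g/g) and 1.26 and 0.779 FPKM in WT. Its log2 fold change was 0.84 (SE 0.330, edgeR adjusted p = 0.145), and it was 0.33 within run 1 and 1.41 within run 2. Tnfrsf26, a mouse relative of the TRAIL decoy receptors, measured 3.55 and 5.65 FPKM against 3.01 and 3.32 FPKM in WT (log2 fold change 0.50, edgeR adjusted p = 0.107). Tnfrsf26 lies beside its relatives Tnfrsf22 and Tnfrsf23, and fragments may have been shared among them.

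Tnfrsf18, for the costimulatory receptor GITR, was the second most abundant receptor. It stood at 14.4 and 14.1 FPKM in libraries labelled Gata3(g/g) and 12.9 and 10.4 FPKM in WT (log2 fold change 0.35, edgeR adjusted p = 0.286). Fas, for the death receptor CD95, measured 2.69 and 4.87 FPKM against 2.53 and 2.57 FPKM in WT (log2 fold change 0.53, edgeR adjusted p = 0.335). Only the Gata3(g/g) library of run 2 stood apart for Fas. Cd27 measured 75.9 and 69.9 FPKM in libraries labelled Gata3(g/g) and 82.9 and 82.7 FPKM in WT. Both Gata3(g/g) values were below the WT values, but the log2 fold change of −0.18 (SE 0.122) did not pass (edgeR adjusted p = 0.428), with 3174 to 5650 fragments per library.

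Tnfrsf4, for the costimulatory receptor OX40, and Tnfrsf14, for HVEM, the receptor of LIGHT and BTLA, overlapped between the genotypes. Tnfrsf4 measured 3.36 and 3.26 FPKM in libraries labelled Gata3(g/g) and 3.08 and 3.86 FPKM in WT. Tnfrsf14 measured 3.96 and 7.98 FPKM against 3.12 and 7.64 FPKM in WT, so that both libraries of run 2 lay above both of run 1. The log2 fold changes were −0.05 (SE 0.278) and 0.20 (SE 0.261), with edgeR adjusted p of 0.941 and 0.721.

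**Figure D3:**
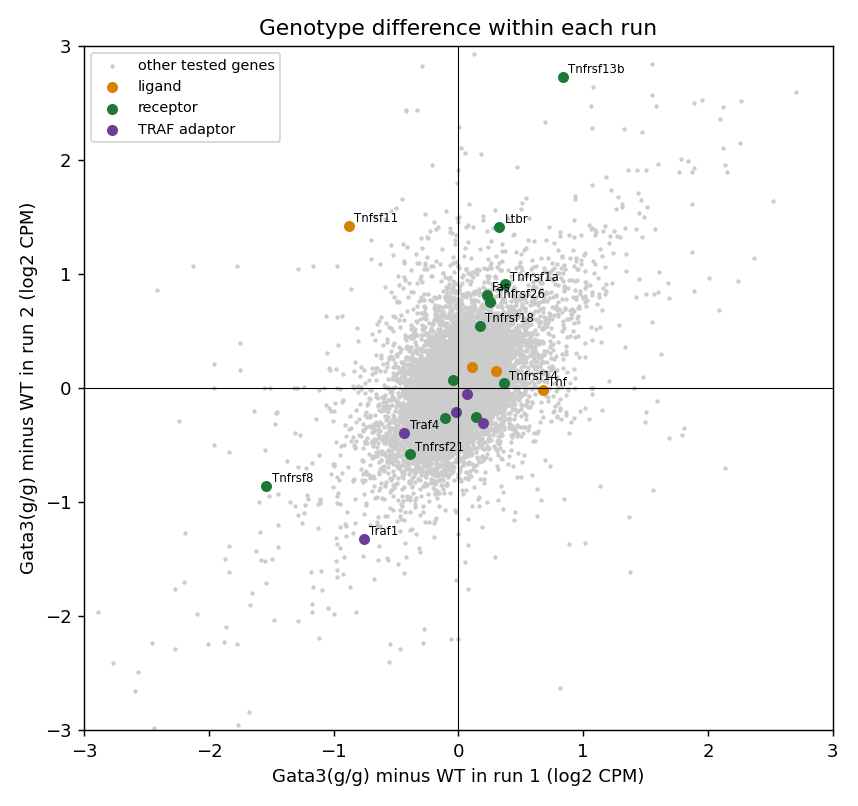
Difference between Gata3(g/g) and WT (log2 CPM) within run 1 on the horizontal and run 2 on the vertical axis, for the 21 tested members and, in grey, the other tested genes, of which 30 lie outside the axes. Traf1, Tnfrsf8 and Tnfrsf21 lie lower left, Tnfrsf13b and Tnfrsf1a upper right, and Tnfsf11 upper left, at −0.88 in run 1 and 1.42 in run 2.

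Of the 4 tested ligands, Tnfsf11 varied most. Tnfsf11 encodes RANKL, with which thymocytes and lymphoid tissue inducer cells promote medullary epithelial maturation. It measured 9.88 and 6.497 FPKM in libraries labelled Gata3(g/g), against 18.4 and 2.39 FPKM in WT. The WT libraries held both the highest and the lowest value. The genotype difference was −0.88 in run 1 and 1.42 in run 2 (log2 CPM), and the log2 fold change of 0.13 (SE 0.329, edgeR adjusted p = 0.866) turned to −0.33 without the run block. The receptor genes Tnfrsf11a, for RANK, and Tnfrsf11b, for the decoy osteoprotegerin, reached at most 0.188 and 0.0827 FPKM.

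Ltb, for lymphotoxin beta, was the most abundant ligand by its mean. It stood at 14.8 and 10.7 FPKM in libraries labelled Gata3(g/g) and 12.2 and 9.56 FPKM in WT (log2 fold change 0.23, SE 0.168, edgeR adjusted p = 0.480). Lta, for the alpha chain with which it forms the membrane trimer, was at most 0.585 FPKM. Tnf measured 6.02 and 2.12 FPKM in libraries labelled Gata3(g/g) and 3.81 and 2.12 FPKM in WT (log2 fold change 0.37, SE 0.253, edgeR adjusted p = 0.439). Within run 1 the difference was 0.68 and within run 2 it was −0.016. Tnfsf10, for the death ligand TRAIL, measured 8.04 and 5.53 FPKM against 7.53 and 4.82 FPKM in WT (log2 fold change 0.15, SE 0.136, edgeR adjusted p = 0.582). In both Tnf and Tnfsf10 the libraries of run 1 lay above those of run 2 whatever the genotype. Tnfrsf10b, for the mouse TRAIL death receptor, was at most 0.901 FPKM.

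Among the TRAF adaptors other than Traf1, Traf4 came closest to passing. It measured 6.82 and 3.57 FPKM in libraries labelled Gata3(g/g) and 9.33 and 4.66 FPKM in WT. The genotypes overlapped because run 2 was lower in each, while the difference was −0.43 in run 1 and −0.39 in run 2 (log2 fold change −0.42, SE 0.144, edgeR adjusted p = 0.0983). Traf2, which links TNF receptors to the inhibitor-of-apoptosis ligases, measured 11.9 and 6.56 FPKM against 11.5 and 6.74 FPKM in WT (log2 fold change 0.01, SE 0.137, edgeR adjusted p = 0.972). Traf3, which with TRAF2 restrains the noncanonical NF-kB pathway, measured 3.05 and 3.17 FPKM against 3.14 and 3.66 FPKM in WT (log2 fold change −0.11, edgeR adjusted p = 0.6995). Traf6, the ubiquitin ligase used by RANK and CD40, measured 6.11 and 5.34 FPKM against 5.40 and 6.54 FPKM in WT (log2 fold change −0.05, edgeR adjusted p = 0.887). Traf5 was at most 0.627 FPKM.

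Several members differed between the runs in the same direction in both genotypes, as did many of all tested genes. Run is also the replicate number, so an effect of sequencing cannot be told apart from other differences between the replicates. Of the 21 tested members, 9 were lower in run 2 than in run 1 in both genotypes (40.0% of all tested genes were), 5 were higher in both (39.2% of all) and 7 moved oppositely (20.5% of all). The 9 included all 4 tested ligands. The genotype difference had the same sign in both runs for 15 of the 21 members (64.6% of all tested genes). Tnfrsf14 was 0.97 higher in run 2 in Gata3(g/g) and 1.30 higher in WT (log2 CPM), and Traf4 was −0.92 and −0.96. For Tnfsf11 the run difference was −0.60 in Gata3(g/g) and −2.90 in WT, and for Tnfrsf13b it was 0.55 and −1.34. Fos, the erythroid markers, S100a8 and S100a9 moved with the runs as given above, and their part in these differences was not tested.

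**Figure D4:**
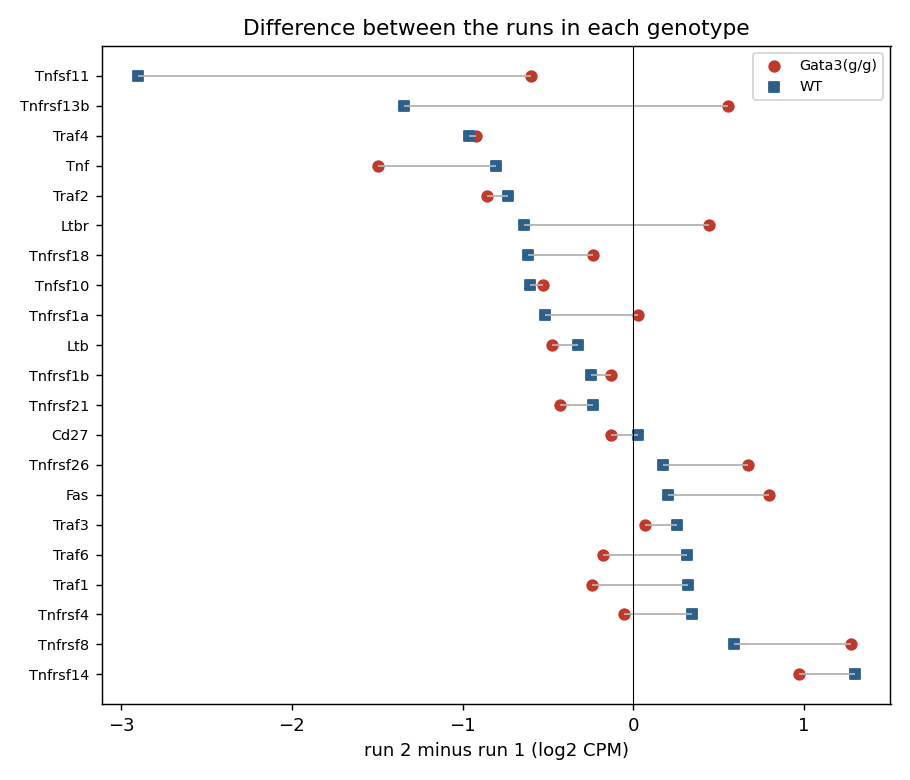
Run 2 minus run 1 (log2 CPM) of the 21 tested members, with a circle for Gata3(g/g) and a square for WT. Tnfsf11 in WT lies farthest out at −2.90, and Traf4, Traf2 and Tnfsf10 have nearly the same run difference in both genotypes.

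The 26 members under the level needed for testing included many that mature T cells, B cells or stroma express. Tnfrsf22 reached 1.47 FPKM in its highest library, and the other 25 stayed below 1 FPKM in every library. Fitted without a minimum level, none of the 26 passed edgeR with the block. Tnfrsf9, for the costimulatory receptor 4-1BB, measured 0.0931 and 0.0619 FPKM in libraries labelled Gata3(g/g), from 9 and 4 fragments, against 0.372 and 0.379 FPKM in WT, from 27 and 19 fragments. Its log2 fold change in that fit was −2.26 (SE 1.05, edgeR adjusted p = 0.302). Tnfsf9, its ligand gene, measured 0.887 and 0.215 FPKM against 0.237 and 0.276 FPKM in WT, and Gata3(g/g) replicate 1 was the highest.

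The highest values of the remaining members were 0.732 FPKM for Tnfsf14 (LIGHT), 0.663 FPKM for Tnfrsf12a, 0.334 FPKM for Tnfrsf25 and 0.319 FPKM for Fasl, the FAS ligand gene. Cd70, the CD27 ligand gene, reached 0.163 FPKM, Tnfsf4 0.152 FPKM, Tnfrsf19 0.133 FPKM and Tnfsf15 0.103 FPKM. Tnfsf12 reached 0.0930 FPKM and Tnfrsf23 0.0726 FPKM. Cd40lg, for CD40 ligand, and Tnfsf18, for GITR ligand, reached 0.0348 and 0.0299 FPKM, with at most 2 fragments in any library. At these depths 3 fragments correspond to 0.112 to 0.209 CPM (counts scaled to library size), a floor for counting error only. Tnfsf12 and Tnfsf13 lie within 1 locus of the authors' table, so their values are uncertain.

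Many ligand and receptor pairs reached a mean of 1 FPKM on 1 side only. Ltb with Ltbr and Tnf with Tnfrsf1a and Tnfrsf1b were the pairs in which ligand and receptor both reached a mean of 1 FPKM. Cd27, Tnfrsf18, Tnfrsf4, Tnfrsf8, Tnfrsf14, Tnfrsf13b and Fas had ligand genes of this family only below that level, and Tnfsf11 and Tnfsf10 had receptor genes only below it. A mean below that level is not absence: Tnfrsf10b held 61 to 143 fragments per library, while Cd70 held 0 to 3.

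Many members sit in clusters in the genome (RefSeq genes, GRCm38.p6). Cd27 (chr6:125232620-125237136), Ltbr (chr6:125306571-125313885) and Tnfrsf1a (chr6:125349723-125362483) follow each other on chromosome 6 with 69434 and 35837 bases between them. Of these, Tnfrsf1a rose, and the log2 fold changes of Ltbr (0.84) and Cd27 (−0.18) did not pass. Tnfrsf8 (chr4:145267132-145315164) lies 20261 bases from Tnfrsf1b, and Tnfrsf8 fell while Tnfrsf1b had a log2 fold change of 0.01. Tnfrsf4 and Tnfrsf18 lie 9708 bases apart on chromosome 4. Ltb, Tnf and Lta lie within the major histocompatibility complex on chromosome 17, with 3061 and 1157 bases between them, and had means of 11.8, 3.52 and 0.405 FPKM over the 4 libraries.

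Downstream of the receptors, the chosen pathway lists held 5 genes that passed. Of 31 tested adaptors, kinases and ubiquitin factors, 2 rose, 1 fell and 28 did not pass (9.68% called, against 6.90% of all tested genes), with a median log2 fold change of 0.15, against 0.01 for all tested genes. Map3k5, for the stress kinase ASK1, measured 2.68 and 2.75 FPKM in libraries labelled Gata3(g/g) and 1.62 and 1.74 FPKM in WT, and rose by 0.70 (edgeR adjusted p = 0.0165). Traf3ip2, for ACT1, the adaptor of the interleukin 17 receptor, measured 12.0 and 9.86 FPKM against 8.95 and 6.59 FPKM in WT, and rose by 0.50 (edgeR adjusted p = 0.0368). Siva1, whose protein binds the tail of CD27, measured 110 and 171 FPKM against 152 and 298 FPKM in WT. Siva1 fell by 0.53 on the log2 scale (edgeR adjusted p = 0.0156), with lower values within each run although the genotypes overlapped.

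Of 23 tested death receptor pathway genes, 0 passed by edgeR with the block (6.90% of all tested genes did). At an unadjusted p under 0.05 there were 6 (26.1%, against 20.9% of all), and the median log2 fold change was −0.01. Casp8, the initiator caspase of FAS and TNFR1, measured 29.6 and 30.6 FPKM in libraries labelled Gata3(g/g) and 24.6 and 22.4 FPKM in WT (log2 fold change 0.36, edgeR adjusted p = 0.0983). Mlkl, the effector of necroptosis, had a log2 fold change of 0.81 (edgeR adjusted p = 0.0546). Both genes were chosen after their values were seen.

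Of 11 tested NF-kB subunits, inhibitors and targets, 2 rose and 0 fell (18.2% called, against 3.90% of all tested genes higher and 2.99% lower), with a median log2 fold change of 0.13. Nfkbie, for the inhibitor IkB epsilon, measured 31.1 and 26.6 FPKM in libraries labelled Gata3(g/g) and 22.8 and 18.4 FPKM in WT, and rose by 0.49 (edgeR adjusted p = 0.0255). Il2ra, for CD25, which is also a DN3 marker, measured 569 and 492 FPKM against 277 and 261 FPKM in WT, and rose by 0.98 (edgeR adjusted p = 0.00262). Birc3 and Tnfaip3, induced by NF-kB like Traf1 and named after their values were seen, had log2 fold changes of 0.57 (edgeR adjusted p = 0.0867) and −0.37 (edgeR adjusted p = 0.140). None of 4 tested genes of ligand and receptor processing passed by edgeR with the block, and 0 had an unadjusted p under 0.05. Over the 67 tested genes of the lists, 5 passed (7.46%), close to the 6.90% of all tested genes.

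The 10 DN3 markers were all tested, and 2 rose and 0 fell, where 3.90% of all tested genes rose and 2.99% fell. The same shares apply to the lists below. Dtx1 measured 41.7 and 33.0 FPKM in libraries labelled Gata3(g/g) and 19.3 and 18.6 FPKM in WT, and rose by 0.98 on the log2 scale (edgeR adjusted p = 0.000109), and Il2ra rose by 0.98. Markers of other cells moved with the genotype in part. Of 7 listed gamma-delta T cell markers in the files, 5 were tested, of which 3 rose (Cd163l1, Maf and Blk) and 1 fell (Sox13). The list summed to 76.4 and 60.5 FPKM in libraries labelled Gata3(g/g) and 29.4 and 28.9 FPKM in WT. Cd163l1 made up most of the sum in libraries labelled Gata3(g/g), at 54.1 and 42.5 FPKM against 11.4 and 7.38 FPKM in WT. Sox13 measured 3.06 and 4.60 FPKM against 9.88 and 17.2 FPKM in WT (log2 fold change −1.79, edgeR adjusted p = 4.78e-07). Of 15 myeloid and dendritic markers, 5 were tested and 1 of them, Lyz2, rose, while 10 were under 1 FPKM in every library. The list summed to 24.7 and 68.6 FPKM in libraries labelled Gata3(g/g) against 16.7 and 56.9 FPKM in WT. The myeloid receptor gene Csf1r reached at most 0.152 FPKM. Of 10 markers of natural killer and innate lymphoid cells, only Nkg7 was tested, and it rose. The other 9 were under 1 FPKM in every library, and the list summed to 97.1 and 76.5 FPKM against 44.0 and 42.1 FPKM in WT. Of 10 markers of double-positive and mature alpha-beta T cells, 6 were tested and 2 rose (Cd8a and Cd8b1). Another 4 were under 1 FPKM in every library, Foxp3 at no more than 0.176 FPKM. The list summed to 321 and 367 FPKM against 238 and 319 FPKM in WT. Of 7 mast cell and basophil markers, only Cpa3 was tested, and it fell. The other 6 were under 1 FPKM, Mcpt4 and Fcer1a being at 0 in every library. The list summed to 2.89 and 1.90 FPKM against 43.5 and 50.2 FPKM in WT. Of 8 erythroid markers, 7 were tested and 1, Hba-a2, rose. It measured 30.4 FPKM in Gata3(g/g) and 10.7 FPKM in WT in run 2 and 0 FPKM in both libraries of run 1, so its call rests on run 2. Hba-a1 had a log2 fold change of 0.21 (edgeR adjusted p = 0.597). Of 12 markers of thymic epithelium and stroma 0 of 3 tested passed, and Foxn1 and Krt5 were at most 0.0568 and 0.0841 FPKM. The part of these markers in the differences of Traf1, Tnfrsf8, Tnfrsf21, Tnfrsf1a and Tnfrsf13b was not tested.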

How the data were processed

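Sorted DN3 thymocytes were profiled by RNA sequencing in 4 libraries, 2 per genotype. Per the labels' protocols, RNA was column-purified with DNase treatment before library construction with the NuGEN Encore Complete system. Per the submitters' processing notes, TopHat2 2.0.8b, Bowtie2 2.1.0, Cuffdiff 2.1.1 and mm10 were used. The sources used here do not state the annotation or the strand setting. Per the file headers, the authors deposited an estimated count of fragments and an FPKM value per gene and library. The authors' deposited comparison table adds a log2 fold change, p-values and q-values per gene.

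Of 23285 genes, 3 marked as too deep were left out. Estimated counts were rounded, 97.7% to 98.9% of them per library being whole numbers to within 0.01. The 10224 genes averaging 1 FPKM or more were tested with edgeR 4.0.16 (R 4.3.3): TMM scaling, the quasi-likelihood F test, two-sided, run and genotype in the model, 1 residual degree of freedom, and Benjamini-Hochberg adjustment at 0.05. The tests therefore lean on the spread pooled over genes. The SE is the unshrunken log2 fold change divided by the square root of F. Within-run differences are log2 CPM with a prior count of 2. The labels' sequence identifiers give the runs, which pair the replicates. The run difference in Gata3(g/g) and that in WT correlated at 0.754 (Pearson, across 10224 genes, which are not independent replicates). The procedure was tested on simulated data. Alternatives were no block, other scalings and minimum levels, DESeq2 1.42.0, limma 3.58.1 (pseudocounts 1 and 0.1) and leaving out each library.

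Every tested member was described, with values per library, and pathway genes that passed were named. The members, lists and tests were chosen with earlier results of these data known.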

Additional observations from a re-analysis of the deposited data

How the results depend on the processing

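With the run block, DESeq2 size factors called 725 genes and 5 members. Scaling to total fragments only called 674 genes, 68.8% of them higher in Gata3(g/g) against 56.6% with TMM, and 4 members. Without a minimum level 988 of 21355 genes and 4 of 47 members passed. The counts changed more under other settings. Without the replicate block, edgeR called 0 genes, 0 members and 0 pathway genes (393, 2 and 2 at an unadjusted p under 0.05). At a mean FPKM of at least 5, 348 of 7013 genes and 0 of 11 members passed (3 members at an unadjusted p under 0.05). Traf1, Tnfrsf8 and Tnfrsf13b were not among those 11, and Tnfrsf1a and Tnfrsf21 had edgeR adjusted p of 0.061 and 0.0756. DESeq2 called 417 genes, 1 member and 2 pathway genes. Limma called 18 genes, 0 members and 0 pathway genes with a pseudocount of 1 (6 members and 10 pathway genes at an unadjusted p under 0.05), and 42, 0 and 0 with a pseudocount of 0.1 (7 members and 11 pathway genes). The cause of these differences was not tested.

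Leaving out 1 library was fitted without the block, since 3 libraries leave no residual degree of freedom with it. Where a genotype kept 1 library, that library was assumed to vary like the others. Between 1 and 11 genes, 0 to 0 members and 0 to 0 pathway genes then passed (1 to 5 members at an unadjusted p under 0.05). All 5 called members lost their call and kept their direction, with log2 fold changes from −1.21 to −0.88 for Traf1, −1.90 to −0.60 for Tnfrsf8, −0.71 to −0.28 for Tnfrsf21, 0.38 to 0.89 for Tnfrsf1a and 1.17 to 2.63 for Tnfrsf13b. Over the 7 or 8 other alternatives the fold changes of the called members kept their sign. Of the 16 tested members that did not pass, 5 kept their direction on leaving out any 1 library, with ranges of 0.17 to 0.84 for Tnfrsf26, 0.57 to 1.22 for Ltbr, 0.054 to 0.66 for Tnfrsf18, 0.13 to 0.93 for Fas and −0.25 to −0.12 for Cd27. The other 11 turned in 1 or more of these fits. Turned values, followed by the range over the fits, were 0.13 for Traf4 (−0.96 to 0.13), −0.48 for Tnf (−0.48 to 1.03), −0.024 for Ltb (−0.024 to 0.45), −0.15 and −0.13 for Tnfsf10 (−0.15 to 0.46), 0.011 for Traf3 (−0.25 to 0.011), −0.42 and −0.39 for Tnfrsf14 (−0.42 to 0.94), and −1.15, −0.67 and −0.065 for Tnfsf11 (−1.15 to 1.75). For Traf6 they were 0.10 and 0.028 (−0.22 to 0.10), for Tnfrsf4 0.12 (−0.24 to 0.12), for Traf2 −0.47 and −0.30 (−0.47 to 0.43) and for Tnfrsf1b −0.11 and −0.059 (−0.11 to 0.13). Tnfsf11 also turned without the replicate block (−0.33).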
